A study of Mus musculus with 2 samples.

Results

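Tetraspanins are a family of membrane proteins, and their mRNAs were examined in monocytic myeloid-derived suppressor cells (M-MDSCs), a population of immature monocyte-like cells that suppress T cells. The members were the genes whose symbol is Tspan followed by a number, together with Cd9, Cd37, Cd53, Cd63, Cd81, Cd82 and Cd151. This rule used names and no measured value, and it found 27 genes of the 34745 listed. Of these, 16 were kept for counts because they reached 1 FPKM, a read count divided by gene length and library total, in one library or both. A further 9 had reads without reaching 1 FPKM, and 2 had no read.

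Mouse bone marrow cells were grown in vitro for 7 days with GM-CSF alone (CHBP- M-MDSC) or with GM-CSF and CHBP (CHBP+ M-MDSC). GM-CSF is a growth factor for myeloid cells and is shared by both groups. CHBP is cyclic helix B peptide, a peptide derived from erythropoietin that does not drive red cell formation. The M-MDSCs were then separated by flow cytometry, as CD11b+Ly6G-Ly6C high cells in the study. The strain is labelled C57BL/6 for CHBP- M-MDSC and C57BL/7 for CHBP+ M-MDSC, and the study's methods name C57BL/6 mice. The age of the mice and a CHBP dose are stated in the study's methods and not in the labels, and the labels do not say whether marrow was pooled. Each condition is 1 library, so the differences below have no replicate check, and CHBP cannot be told apart from any other difference between these 2 libraries.

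A tetraspanin crosses the membrane repeatedly and carries a small and a large extracellular loop, with short tails inside the cell. Tetraspanins bind integrins, immunoglobulin-like proteins, proteases and each other, and so assemble membrane patches that organise adhesion, fusion, receptor trafficking and the budding of extracellular vesicles. Leukocytes carry several of them. Cd53 and Cd37 are largely restricted to blood cells, Cd9, Cd81, Cd82 and Cd151 are shared with other tissues, and Cd63 marks late endosomes, lysosomes, secretory granules and exosomes.

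The sequence that defines the family is the Cys-Cys-Gly motif of the large loop, whose cysteines form disulphide bonds that fold the loop. A coding sequence of the GENCODE M1 annotation (NCBIM37) was found for all 27 members, and 26 of these were complete. Each was translated and searched on its coding strand for Cys-Cys-Gly starting between residues 110 and 220, a span set after the positions in the members were seen. All 27 members had it, against 0.598% of all 22737 coding genes of the annotation. The motif started between residues 128 and 220 in proteins of 204 to 341 residues. The windows below show it in the most abundant members and in those with the largest differences between the libraries, with 18 coding bases on each side and the 9 motif bases in capitals.
Cd53: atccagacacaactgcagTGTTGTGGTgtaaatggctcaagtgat
Cd63: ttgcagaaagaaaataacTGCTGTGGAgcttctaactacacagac
Cd9: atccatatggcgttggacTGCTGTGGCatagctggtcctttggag
Tspan31: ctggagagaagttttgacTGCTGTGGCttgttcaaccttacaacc
Cd82: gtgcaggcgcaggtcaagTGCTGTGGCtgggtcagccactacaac
Tspan4: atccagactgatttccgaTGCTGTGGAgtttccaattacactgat
Tspan2: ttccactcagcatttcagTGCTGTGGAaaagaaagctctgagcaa
Tspan5: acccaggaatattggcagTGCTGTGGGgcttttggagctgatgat
All of these windows are coding exon sequence on NCBIM37. They lie at chr3:106566178-106570256 on the minus strand for Cd53, chr10:128349108-128349249 on the plus strand for Cd63, chr6:125412189-125412356 on the minus strand for Cd9 and chr10:126505569-126505613 on the minus strand for Tspan31. The others lie at chr2:93260880-93261995 on the minus strand for Cd82, chr7:148677561-148677705 on the plus strand for Tspan4, chr3:102563320-102564852 on the plus strand for Tspan2 and chr3:138557471-138559785 on the plus strand for Tspan5. Coordinates of windows that cross an exon junction include the intron.

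The position of the exon junction was nearly invariant in the family. In 24 of the 27 members an exon ended exactly 6 bases before the motif, as in the windows of Cd53, Cd9, Tspan2 and Tspan5. The 3 exceptions, whose windows lie within 1 exon, were Tspan31, Tspan13 and Tspan10. Tspan31 and Tspan13 were also each other's nearest relative, with 57.4% identical aligned residues. The codons varied more, since 11 spellings of Cys-Cys-Gly occurred, and the commonest, TGCTGTGGC, was used by 9 members. Over the aligned residues of the whole proteins, motif included, percent identity of the 351 pairs had a median of 29.8% and ranged from 17.4% to 79.1%. The highest identity was that of Tspan5 and Tspan17. Tspan2 was nearest to Cd9, at 49.1%, followed by Cd81, at 45.2%.

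The counts summed to 16484504 reads in the CHBP- library and 16280466 in the CHBP+ library. Itgam (CD11b), listed under 2 identifiers, had 157 and 100 FPKM in the CHBP- library and 232 and 153 FPKM in the CHBP+ library, Ly6c2 had 56.9 and 34.0 FPKM, and Ly6g was low in both libraries, at 2.19 and 2.12 FPKM. Monocyte and macrophage genes summed to 10315 and 8430 FPKM, most of it from Lyz2, at 9756 and 7830 FPKM, and Cx3cr1 stayed under 1 FPKM. Of the 5 genes of this list that reached 1 FPKM, Lyz2 was lower in the CHBP+ library and the other 4 were higher. Transcripts that mark other blood cells were present in both libraries. Erythroid genes summed to 1283 and 587 FPKM, megakaryocyte and platelet genes to 387.0 and 319.6 FPKM, basophil and mast cell genes to 284 and 233 FPKM, dendritic cell genes to 128 and 158 FPKM, B cell genes to 41.3 and 28.1 FPKM and T cell genes to 3.77 and 2.94 FPKM. None of the markers in these lists had 0 reads in both libraries. Of the 3 dendritic cell genes that reached 1 FPKM, Itgax was higher in the CHBP+ library, at 107 and 142 FPKM, and 2 were lower. Fewer cells of a type and less RNA per cell cannot be told apart in such bulk libraries.

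The tetraspanin mRNA of these cells was dominated by 3 members. Cd53, Cd63 and Cd9 together made up 88.0% of the summed tetraspanin FPKM in the CHBP- library and 88.7% in the CHBP+ library, or 81.2% and 81.8% of the tetraspanin reads. The whole family took 0.425% of the counted reads in the CHBP- library and 0.401% in the CHBP+ library. Its summed FPKM in the CHBP+ library was 0.941 of that in the CHBP- library, against 0.908 for all genes. The family's share was thus lower in the CHBP+ library by reads and higher by FPKM. By FPKM, the order of the 5 highest members was the same in both libraries, namely Cd53, Cd63, Cd9, Tspan31 and Cd81. By reads, Cd9 was above Cd63 and Cd37 above Cd81 in both libraries.

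**Figure D1:**
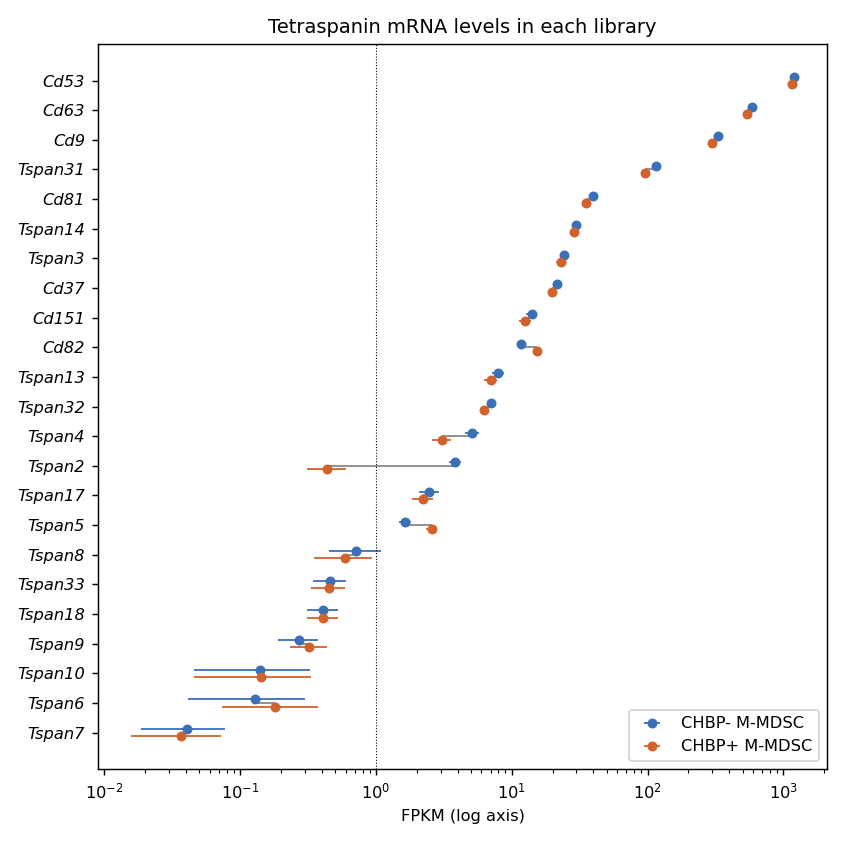
FPKM on a log axis of the 23 tetraspanins with reads in both libraries, with the CHBP- library in blue and the CHBP+ library in orange. Bars are exact 95% Poisson intervals of each library's reads, for counting error only, and the dotted line marks 1 FPKM. The levels span from over 1000 FPKM (Cd53) to under 0.1 FPKM (Tspan7), and the pairs of points lie close together except for Tspan2, which was 3.83 FPKM in the CHBP- and 0.437 FPKM in the CHBP+ library.

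None of the 16 members kept was at least 1.5-fold higher in the CHBP+ library, where 374 of all 10948 genes kept were (3.42%), and 1 member, Tspan2, was at least 1.5-fold lower, where 316 of all genes kept were (2.89%). Tspan2 reached 1 FPKM in the CHBP- library only, so it was kept through the library in which it was higher. The difference was measured as the log2 ratio, the log2 of CHBP+ FPKM + 1 divided by CHBP- FPKM + 1, on which changes of weakly expressed genes come out too small, and 1.5-fold is 0.58 on this scale. Of the 16 members, 12 lay within 0.3 of 0. The log2 ratio was below 0 in 14 members (87.5%), against 53.7% of all genes kept, and it was above 0 in Cd82 and Tspan5. The median log2 ratio was -0.13 for the members and -0.03 for all genes kept. This direction was not seen once the median of genes of similar length was subtracted, when 7 members were above 0 and 9 below with a median of -0.0094. A two-sided exact binomial test of each gene's reads, adjusted by Benjamini-Hochberg over the 14162 genes that had 10 reads or more, compares these libraries and not the conditions. It called 2 of 23 members tested higher in the CHBP+ library, where it called 21.9% of all genes tested, and 8 lower, where it called 22.2%. Those called higher were Cd82 and Tspan5, and those called lower were Cd53, Cd63, Cd9, Cd81, Cd37, Tspan31, Tspan4 and Tspan2. The remaining 13 were not called, which at their depth does not show equal levels.

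**Figure D2:**
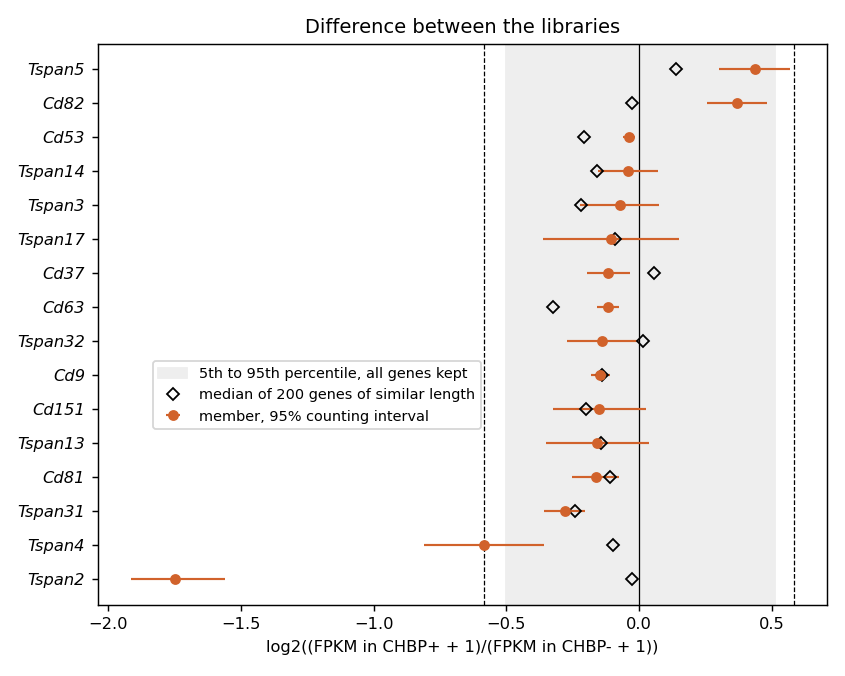
Log2 ratio of FPKM + 1, CHBP+ over CHBP- M-MDSC, of the 16 tetraspanins kept. Orange points are members with 95% intervals for counting error, open diamonds give the median of the 200 genes of most similar length, the grey band spans the 5th to the 95th percentile of all genes kept (-0.50 to 0.51) and dashed lines mark 1.5-fold. Tspan2 lies at -1.75, Tspan4 on the lower line, and Tspan5 and Cd82 are the 2 members above 0.

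Tspan2 had the largest difference in the family. Tspan2 (ENSMUSG00000027858) is best known from oligodendrocytes, the myelin-forming cells of the brain, and is listed on chromosome 3 from 102734529 to 102801513 (GRCm38). It had 337 reads in the CHBP- library and 38 reads in the CHBP+ library, or 3.83 and 0.437 FPKM. The level in the CHBP- library was thus 8.76-fold that in the CHBP+ library (95% interval 6.25 to 12.6, for counting error only). Its log2 ratio of -1.75 (interval -1.91 to -1.56) was undercut by 10 of the 10948 genes kept. It was kept only through its FPKM in the CHBP- library. Within the family, Tspan2 moved from the 14th highest FPKM to the 18th.

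No listed gene that overlaps Tspan2 had reads. The 3 genes whose span overlaps it, Gm42681, Tshb and Tspan2os, had 0 reads in both libraries. Among genes kept within 1 Mb of it, Nras had a log2 ratio of -0.33, Bcas2 of -0.14 and Sike1 of 0.22, and Trim33, Atg4a-ps, Hipk1 and Dclre1b lay between -0.01 and 0.48. None of these neighbours was past 1.5-fold. Its closest relatives in sequence, Cd9 and Cd81, had log2 ratios of -0.15 and -0.16. Cd9 FPKM were 85.6 times those of Tspan2 in the CHBP- library and 677 times in the CHBP+ library.

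Several marker sums moved the same way as Tspan2. The summed FPKM of all genes in the CHBP+ library was itself 0.908 of that in the CHBP- library. Among erythroid markers, 5 of the 5 kept had a log2 ratio below 0 and Hbb-bs had 708 and 212 FPKM. Of the B cell markers, 4 of 5 were below 0, and of the megakaryocyte and platelet markers, 4 of 5 kept. Over all genes kept, 53.7% were below 0. After subtracting the value of genes of similar length, 5 erythroid and 4 B cell markers were below 0. The megakaryocyte and platelet markers then had 2 above 0 and 3 below. Ly6c2, which encodes a protein used for the sort, had a log2 ratio of -0.73. The part of these in the Tspan2 difference was not tested.

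The leukocyte tetraspanins showed small differences. Cd53 (ENSMUSG00000040747), a leukocyte protein linked to adhesion and signalling, had 34136 reads in the CHBP- library and 32864 in the CHBP+ library, or 1189 and 1159 FPKM. Its log2 ratio was -0.04 (counting interval -0.06 to -0.01), and it ranked 30th of all genes by FPKM in the CHBP- library and 24th in the CHBP+ library. Cd53 held 49.7% of the summed tetraspanin FPKM in the CHBP- library and 51.4% in the CHBP+ library. Cd37, which is known for its part in B cell and myeloid adhesion, had 21.5 and 19.8 FPKM, a log2 ratio of -0.12 (-0.20 to -0.04). Tspan32, a tetraspanin of haematopoietic cells, had 7.05 and 6.31 FPKM, a log2 ratio of -0.14 (-0.27 to -0.01). These 3 members kept their order relative to each other in both libraries.

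Cd63, Cd9 and Cd81 are the tetraspanins most used as markers of extracellular vesicles. Cd63 (ENSMUSG00000025351) had 10009 reads in the CHBP- library and 9111 in the CHBP+ library, or 589 and 543 FPKM, a log2 ratio of -0.12 (-0.16 to -0.08). Cd63-ps, a separate listed gene that was also kept, had a log2 ratio of -0.38. How reads that map to both genes were counted is not given in the sources used here. Cd9 (ENSMUSG00000030342), which also acts in sperm-egg fusion and is abundant on platelets, had 12795 and 11422 reads, or 328 and 296 FPKM, a log2 ratio of -0.15 (-0.18 to -0.11). Cd81, part of the B cell coreceptor, had 39.9 and 35.5 FPKM, a log2 ratio of -0.16 (-0.25 to -0.07). The counting intervals of Cd63, Cd9 and Cd81 lay below 0 and above -0.30, far from 1.5-fold. Cd9 stood 8.22 times above Cd81 in FPKM in the CHBP- library and 8.34 times in the CHBP+ library, so that their ratio was nearly the same. The platelet genes Pf4 and Ppbp had log2 ratios of -0.39 and -0.06. Of the 5 megakaryocyte and platelet markers kept, 4 were below 0 and 1 above. After subtracting the median of genes of similar length, Pf4 and Ppbp were at -0.14 and 0.27. Of the 5 markers kept, 2 were then above 0 and 3 below. Of 5 mast cell and basophil markers kept, 4 were below 0, among them Mcpt8 at -0.61, Prss34 at -0.54 and Cpa3 at -0.13, and Ms4a2 was at 1.04. Over all genes kept, 53.7% were below 0. After the same subtraction, 3 of these 5 markers were above 0 and 2 below, with a median of 0.12. The part of these cells in the levels of Cd9 and Cd63 was not tested.

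Cd82 was the leukocyte member with a log2 ratio above 0 before length was taken into account. After subtracting the median of genes of similar length it was at 0.40, and Cd53, Cd63 and Cd151 were above 0 too, at 0.17, 0.21 and 0.05. Cd82, known as a metastasis suppressor and a regulator of adhesion, had 980 reads in the CHBP- library and 1275 in the CHBP+ library, or 11.7 and 15.4 FPKM. Its log2 ratio was 0.37 (0.26 to 0.48), so its counting interval lay above 0 and below 1.5-fold. Cd151, which binds laminin-binding integrins, had 14.1 and 12.6 FPKM, a log2 ratio of -0.15 (-0.33 to 0.03). As a result, Cd151 was above Cd82 by FPKM in the CHBP- library and below it in the CHBP+ library. By reads Cd151, with 490 and 433, was below Cd82 in both libraries. Over the 8 leukocyte members Cd9, Cd37, Cd53, Cd63, Cd81, Cd82, Cd151 and Tspan32, the median log2 ratio was -0.13, and 7 of 8 were below 0, against 53.7% of all genes kept. After the median of genes of similar length was subtracted, their median was 0.02, with 4 above 0 and 4 below.

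Tspan14 carried most of the TspanC8 mRNA. TspanC8 tetraspanins, named for the 8 cysteines of their large loop, bring the sheddase ADAM10 to the cell surface, where it cleaves Notch receptors and adhesion proteins. Tspan14 had 1212 reads in the CHBP- library and 1162 in the CHBP+ library, or 29.7 and 28.8 FPKM, a log2 ratio of -0.04 (-0.15 to 0.07). It made up 86.3% of the summed FPKM of the 6 TspanC8 members in the CHBP- library and 84.2% in the CHBP+ library. These shares depend on the gene length implied by the FPKM, 2475 bases for Tspan14 and 12223 for Tspan5. By reads Tspan14 still held most, but its share was smaller. Tspan5 had 331 and 513 reads, or 1.64 and 2.58 FPKM, and Tspan17, its nearest relative, had 2.47 and 2.22 FPKM.

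Tspan5 was the member with the highest log2 ratio, 0.44 (0.30 to 0.57). Its reads, scaled to the library total, were 1.57-fold higher in the CHBP+ library (1.36 to 1.81), so that the pseudocount of 1 FPKM decided that it was not counted as 1.5-fold higher. Tspan17 had a log2 ratio of -0.11 (-0.36 to 0.15). By FPKM, the order of Tspan5 and Tspan17 was therefore exchanged between the libraries. By reads it was not, since Tspan17 had 135 and 120 reads, fewer than Tspan5 in both libraries. How reads that map to more than one gene were counted is not given in the sources used here. The 3 other TspanC8 members, Tspan10, Tspan15 and Tspan33, stayed under 1 FPKM.

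Adam10 and most of the genes listed with it had log2 ratios above 0. Adam10 had 3985 reads in the CHBP- library and 4757 in the CHBP+ library, or 38.8 and 46.9 FPKM, a log2 ratio of 0.27 (0.21 to 0.33). In a list of 12 genes that held Adam10, the related sheddase Adam17, the secretase gene Bace1 and shed proteins, 11 were kept, of which 10 were above 0 and 1 below. Over all genes kept, 53.7% were below 0. None of the 11 was past 1.5-fold in either direction, where 3.42% of all genes kept were higher and 2.89% lower. Their median log2 ratio was 0.24. These genes are long, with a median of 10803 bases, and after subtracting the value of genes of similar length the median was 0.23. The read test called 8 of 12 higher and 0 lower, against 21.9% and 22.2% of all genes tested. The largest value was that of the receptor gene Notch2, at 0.55, followed by Notch1, at 0.44. After the same subtraction Notch2 was still the largest, at 0.445, and Notch1, at 0.227, was no longer second.

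The members with other or less known roles included the most abundant Tspan gene. Tspan31, first found as a gene amplified in sarcomas, had 2904 reads in the CHBP- library and 2358 in the CHBP+ library, or 116 and 95.5 FPKM, a log2 ratio of -0.28 (-0.36 to -0.20). Its listed span overlaps that of Cdk4, a cyclin-dependent kinase gene, which had 2051 and 1547 reads and a log2 ratio of -0.37. Whether the counting used strand is not given in the sources used here, so that reads of these genes may be mixed. Summed over both genes, the reads scaled to the library total in the CHBP+ library were 0.798 of those in the CHBP- library (0.765 to 0.832), a difference in the same direction. After subtracting the median of genes of similar length, the log2 ratio of Tspan31 was -0.04.

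Tspan4 lay just short of the threshold on the scale with the pseudocount. Tspan4, which is known from migrasomes, the vesicles that migrating cells leave behind, had 271 reads in the CHBP- library and 161 in the CHBP+ library, or 5.09 and 3.06 FPKM. Its log2 ratio was -0.58 (-0.81 to -0.36), and the reads scaled to the library total in the CHBP+ library were 0.602 of those in the CHBP- library. The level in the CHBP- library was thus 1.66-fold that in the CHBP+ library (1.36 to 2.03). The pseudocount of 1 FPKM decided that Tspan4 was not counted as 1.5-fold lower. The listed span of Tspan4 overlaps Chid1, which had 606 and 616 reads, and over the sum of both genes the fold was 0.897 (0.813 to 0.989). Cd151, which lies 3761 bases from Tspan4 on chromosome 7 with 1 listed gene between them, had a log2 ratio of -0.15.

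Tspan3 and Tspan13 differed by less than their counting error. Tspan3, found on many cell types and linked to myeloid leukaemia stem cells, had 24.3 and 23.1 FPKM, a log2 ratio of -0.07 (-0.22 to 0.08). Tspan13 had 7.95 and 7.02 FPKM, a log2 ratio of -0.16 (-0.35 to 0.04). A difference in these genes was not detectable at this depth.

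The 9 members with reads but under 1 FPKM had 0 to 58 reads in a library, and their log2 ratios lay between -0.11 and 0.07. Tspan18, Tspan33, Tspan9 and Tspan8 had the most, with 58 and 57, 52 and 50, 36 and 42, and 22 and 18 reads in the CHBP- and the CHBP+ library. Tspan7, Tspan6, Tspan10, Tspan12 and Tspan15 had under 10 reads in each library. Tspan12 had 3 reads in the CHBP- library and 0 in the CHBP+ library, and Tspan15 had 0 and 2. Tspan1 and Tspan11 had no read, and 0 reads allow a level of up to 0.182 CPM (reads scaled to the counted total) in the CHBP- library and 0.184 CPM in the CHBP+ library. Differences in these members were not detectable at this depth.

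The log2 ratio varied with gene length over all genes, and most tetraspanin genes are short. Across the 10948 genes kept, whose values are not independent of each other, the log2 ratio and the length implied by the FPKM had a Spearman's rho of 0.478. The median length was 2987 bases for the members kept and 4935 bases for all genes kept. After the median log2 ratio of the 200 genes of most similar length was subtracted, the log2 ratios of Cd53, Cd63, Tspan3, Tspan14 and Cd151 changed sign, to 0.17, 0.21, 0.14, 0.12 and 0.05. Tspan2 was then at -1.72, Tspan4 at -0.48, Cd82 at 0.40 and Tspan5 at 0.30, against a 5th to 95th percentile of -0.38 to 0.48 over all genes. By this value 356 of all genes kept were at least 1.5-fold higher and 156 lower, against 374 and 316 without it.

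**Figure D3:**
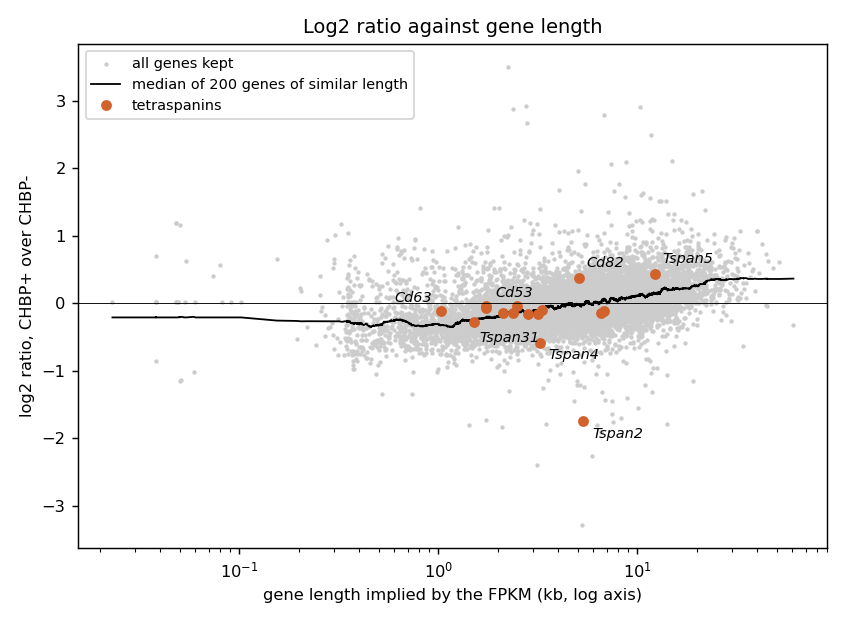
Log2 ratio of FPKM + 1, CHBP+ over CHBP- M-MDSC, against the gene length implied by the FPKM (kb, log axis) for the 10948 genes kept (grey) and the 16 tetraspanins kept (orange). The black line is the median of the 200 genes of most similar length and is below 0 for short genes and above 0 for long ones. Most tetraspanins lie near the line, Cd82 and Tspan5 above it, and Tspan4 and Tspan2 below it.

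The genes of proteins that bind tetraspanins were mostly higher in the CHBP+ library. In a list of 26 such genes with 27 entries, 22 were kept, of which 3 were at least 1.5-fold higher (3.42% of all genes kept) and none lower. The log2 ratio was above 0 in 19 and below 0 in 3, where 53.7% of all genes kept were below 0, and its median was 0.18. After subtracting the value of genes of similar length the median was 0.17. The read test called 15 of 27 entries higher and 1 lower, against 21.9% and 22.2% of all genes tested. The 3 past 1.5-fold were integrin alpha chains. Itga4 had 969 and 1611 reads (log2 ratio 0.62), Itga6, a chain of a laminin receptor that Cd151 binds, had 791 and 1289 reads (0.60), and 1 of the 2 entries of Itgam had 8703 and 13147 reads (0.61). After subtracting the value of genes of similar length, Itga4 was at 0.41 and Itga6 at 0.46, both short of 1.5-fold, and this entry of Itgam at 0.64. Itgam was also used for the sort.

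Among the remaining partners, Itgb1, the beta chain shared by these integrins except Itgam, had 8776 and 9912 reads, a log2 ratio of 0.19. The immunoglobulin-like partners of Cd9 and Cd81 had log2 ratios of 0.36 for Ptgfrn, with 139 and 227 reads, and 0.08 for Igsf8, with 1052 and 1104 reads. Their tetraspanins, Cd151, Cd9 and Cd81, were between -0.16 and -0.15, and at 0.05, -0.0043 and -0.05 after subtracting the median of genes of similar length. The lowest partner was Icam1, at -0.23 (-0.32 to -0.13), which was the gene called lower by the read test.

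The genes of vesicle formation lay on both sides of 0, more of them below. Of 14 genes, 13 were kept, and none was past 1.5-fold, where 3.42% of all genes kept were higher and 2.89% lower. The log2 ratio was above 0 in 4 and below 0 in 9, where 53.7% of all genes kept were below 0, and its median was -0.06. After subtracting the value of genes of similar length, 5 were above 0 and 8 below, with a median of -0.10. The read test called 3 of 13 higher and 5 lower, against 21.9% and 22.2% of all genes tested. Sdcbp, which encodes syntenin, a scaffold that binds Cd63, had a log2 ratio of -0.08, and its partner Pdcd6ip (ALIX) of 0.18. The sorting complex gene Tsg101 stood at -0.20 and Chmp4b, a subunit of the membrane scission complex, was the lowest, at -0.41.

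**Figure D4:**
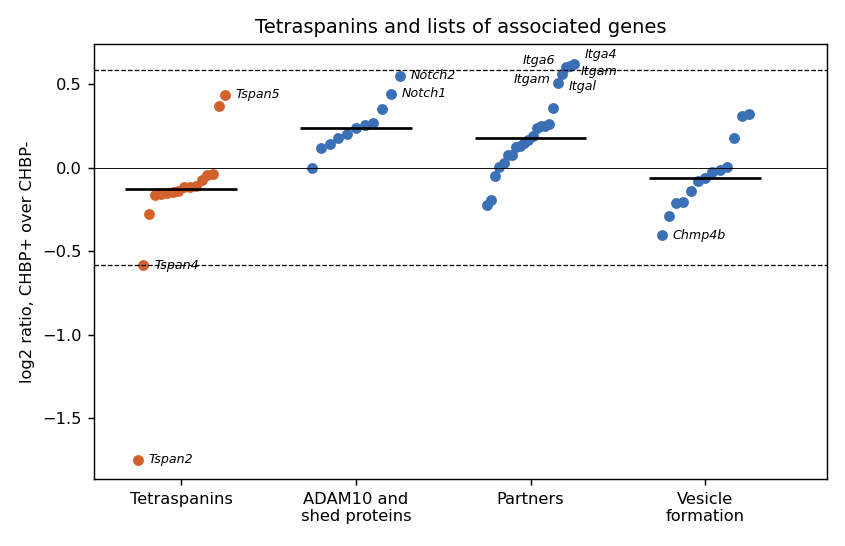
Log2 ratio of FPKM + 1, CHBP+ over CHBP- M-MDSC, of the tetraspanins kept (orange) and of the kept genes of 3 associated lists (blue), each gene 1 point in rising order. Black bars are list medians and dashed lines mark 1.5-fold. The medians were -0.13 for tetraspanins, 0.24 for ADAM10 and shed proteins, 0.18 for binding partners and -0.06 for vesicle formation.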

How the data were processed

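RNA of 2 M-MDSC libraries, CHBP- and CHBP+, was sequenced. Per the labels, the authors removed adapters, low-quality bases, short reads and ribosomal reads with Seqtk. Methods name TopHat2, mm9, HT-seq and DESeq, whereas the submitters' processing notes list HISAT2 2.0.4, Cufflinks 2.1.1, Cuffdiff and mm10/GRCm38, and 27 of 27 members overlapped their RefSeq position on GRCm38. The authors deposited raw read counts per gene and FPKM. The deposited FPKM equal the counts scaled by gene length and library total, which gave the implied length, so the length used bears on levels more than on ratios between libraries.

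Samples were grouped by their labels. The members and lists were chosen with earlier results of these data known. Genes reaching 1 FPKM in either library were kept, with a pseudocount of 1 FPKM. Intervals are 95% Clopper-Pearson and cover counting error only, since reads are not independent molecules. The depth of 16484504 and 16280466 reads sets the floor of 3 reads for a count of 0. No replicate model could be fitted with 1 library per condition. Named were all members kept, anchors of the lists, genes past 1.5-fold in them, sorting markers, overlapping genes and leading markers of other cells. Notch1, Notch2, Icam1, Chmp4b, Adam17, Bace1, Mcpt8, Prss34, Ms4a2, Cd63-ps, the genes near Tspan2 and members under 1 FPKM were named after their values were seen. Proteins were translated from GENCODE M1 and aligned globally (BLOSUM62). Alternatives were another pseudocount, other filters, scaling by the trimmed mean of M values (computed with R 4.3.3 and edgeR 4.0.16), median centring, CPM, length adjustment, another fold, and leaving out overlapping members. Python 3.11.15, numpy 2.4.6, pandas 2.3.3, scipy 1.17.1, biopython 1.88 and matplotlib 3.10.9 were used.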

Additional observations from a re-analysis of the deposited data

How the results depend on the processing

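Tspan2 was at least 1.5-fold lower in CHBP+ M-MDSC, and no other member was called, without a filter on FPKM, with trimmed mean of M values scaling, with the median log2 ratio set to 0, after length adjustment, without the members that overlap another gene with reads, and at 2-fold. With a pseudocount of 0.1 FPKM and with CPM in place of FPKM, 1 member was higher (Tspan5, 0.62 and 0.63) and 2 were lower (Tspan2 and Tspan4), and the log2 ratio of Tspan2 was -2.87 and -2.69. With a minimum of 5 FPKM, 0 were lower, because Tspan2 was not kept. The member median was -0.0094 after length adjustment, which also moved 9 of 16 members and changed the sign of 5. No call of a member reversed. With genes of at least 50 reads, 10 members were called by the read test, as with 10 reads, and with trimmed mean of M values 9. With CPM, 796 of all genes were higher and 464 lower, and with the median set to 0, 434 and 264. No paired analysis was possible because each condition has 1 library, and no replicate could be left out. Depth limits members under about 50 reads.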

Other observations

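The tetraspanin family also holds genes outside the naming rule. Rom1, known as a structural protein of photoreceptor discs, had 50 reads in the CHBP- library and 26 in the CHBP+ library, or 1.99 and 1.05 FPKM, a log2 ratio of -0.55. Prph2, its partner in photoreceptors, had 0 reads in both libraries, and the urothelial genes Upk1a and Upk1b had 2 or 3 reads in each.

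Some members lie next to each other in the genome. Tspan32 and Cd81 lie 33095 bases apart on chromosome 7 with no listed gene between them, and their log2 ratios were -0.14 and -0.16. Tspan18 and Cd82 lie 84606 bases apart on chromosome 2 with 1 listed gene between them, and Tspan18 was under 1 FPKM while Cd82 had 11.7 and 15.4 FPKM.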
